A study of Mus musculus with 310 samples.

Results

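Slc2a1, Hif1a and 5 further genes of the cellular response to low oxygen (Vegfa, Bnip3, Ndrg1, P4ha1 and Egln1) were followed gene by gene in single epidermal cells of mouse tail skin. The 7 genes were taken as a list of names, and all 7 were among the 14068 genes of the deposited count table. The table held 310 cells, in a group labelled 38w (145 cells, replicates RepI and RepL) and a group labelled 38wUW (165 cells, replicates RepM and RepN). All cells came from mice of a mixed CBA C57BL/6 strain that carried Lrig1-EGFP-ires-CreERT2 and Rosa26-fl/STOP/fl-tdTomato and had hydroxytamoxifen put once on the tail skin. Lrig1, the driver of the Cre, is active in stem cells of the upper hair follicle, so the sorted tdTomato-positive cells were those cells and their descendants, of any epidermal fate. The time label itself is 38w or 38wUW, so both groups share the 38 weeks and differ in the letters UW. How many animals gave a replicate is not in the labels. The study compared repaired with age-matched control skin, but the labels do not spell out UW or say which group had been wounded. Each difference below is that of 38w against 38wUW, with no direction towards or away from repair.

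Cells adapt to low oxygen through the hypoxia-inducible factors, pairs of an oxygen-regulated alpha subunit such as HIF-1α, the product of Hif1a, and a stable beta subunit. When oxygen is present, prolyl hydroxylases such as EGLN1 mark the alpha subunit for destruction, so that much of its control lies in the protein and not in the messenger RNA. When the factor is stable it raises a set of genes that includes Slc2a1, whose product GLUT1 carries glucose into the cell, and Vegfa, whose product draws blood vessels. Bnip3 acts in the removal of mitochondria, Ndrg1 in stress responses and differentiation, and P4ha1 in the hydroxylation of collagen. Egln1 itself is among the targets. In the epidermis, GLUT1 is the main glucose transporter of keratinocytes and is strongest in the basal layer.

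The factor binds DNA at a short core, ACGTG or GCGTG, and these letters were looked for upstream of the members' start sites. RefSeq start-site windows (build GRCm38.p6) were found for 6 of the 7 members. In the 250 bases before the start, counted on both strands and with CACGTG, which is also the core of the E-box bound by other factors, counted once, Slc2a1 held 2 matches, Hif1a 2, Bnip3 4, P4ha1 3 and Egln1 2. The first Vegfa window held 0 and a second one inside the gene held 2. The Hif1a window (chr12:73907617-73907916) also lay inside the span of its gene as given below. For comparison, 38.6% of the 32851 windows in the table held at least 1 match and 13.7% held 2 or more. The stretch of 60 bases with the most matches is shown for Slc2a1 and for 3 targets, with the matching letters in capitals and written 5′ to 3′ on the strand of the gene.
Slc2a1 (plus strand, chr4:119108669-119108728): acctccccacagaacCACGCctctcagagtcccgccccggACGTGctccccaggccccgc
Bnip3 (minus strand, chr7:138909583-138909642): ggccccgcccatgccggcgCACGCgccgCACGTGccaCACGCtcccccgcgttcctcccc
P4ha1 (plus strand, chr10:59323124-59323183): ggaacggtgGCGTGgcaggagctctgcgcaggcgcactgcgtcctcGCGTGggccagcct
Egln1 (minus strand, chr8:124949349-124949408): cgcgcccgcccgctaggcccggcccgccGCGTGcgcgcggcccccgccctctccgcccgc
A match describes the letters of a window and is not a measured binding site.

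The cells held 11711 to 721564 reads (median 61294) and 1996 to 5840 genes, and the replicates summed to 5472070 to 12946742 reads. RepI lay on plates C114 (53 cells) and C118 (17 cells), RepL on C119, RepM on C128 and RepN on C129, so that replicate and plate cannot be told apart except within RepI. The labels give C114 and C118 different batch tags, so a difference between these plates is also a difference between batch tags. A cell is a column of the table here. On C114, 11 wells gave 2 columns each, 1 of them with the unexplained suffix IDTILL, so that its 53 columns came from 42 wells. The levels of a well's 2 columns had a median r of 0.490 over genes against 0.383 for other pairs of columns on C114, and 13 of these 22 columns were most like the other column of their well. Whether such a pair is 1 cell was not settled. Well H12 of C119 and of C129 carries the suffix MBULK, which may stand for mini-bulk, the name in the study's methods for a library of many sorted cells, so these 2 columns may not be single cells. Plate C114 stood apart, with a median of 31.8% of reads in ribosomal protein genes against 3.6% to 6.8% on the other plates, and 2.77% in mitochondrial genes against 9.69% to 33.8%. Keratinocyte genes were found in most cells, with a read of Krt14, the keratin of basal keratinocytes, in 279 of 310 cells and of Col17a1, a protein that anchors them, in 247. Of the counts of the keratin genes Krt14, Krt5 and Krt17, 55.9%, 31.6% and 76.4% were not whole, so that their levels, and the marker lists that hold them, are uncertain. The 7 basal markers together stood at 2100 to 23401 CPM across the replicates, highest in RepI, where CPM are the reads of a gene in a sum of cells scaled to a total of 1000000. The 4 of 5 fibroblast markers in the table summed to 8.27 to 62.7 CPM, also highest in RepI, the 3 of 4 melanocyte markers to 7.96 to 15.1 CPM and the 1 of 5 leukocyte markers, Ptprc, to 0.514 to 1.72 CPM. Col3a1, Mlana, Cd3e, Cd207 and Cdh5 were not in the table used here. Of the endothelial markers, Kdr had a read in 8 cells, whereas Pecam1 is described with P4ha1 below. Whether other cell types had a part in the results was not tested.

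Per length of transcript, the members formed 2 tiers that held in every replicate, with P4ha1 uncertain for reasons given with that gene. Slc2a1, Hif1a, Bnip3 and P4ha1 stood at 8.82 to 126 CPM per kilobase of exon, and Egln1, Ndrg1 and Vegfa at 0.159 to 7.41. The tiers did not hold on plate C114, which gave 53 of the 70 cells of RepI. There Egln1 stood at 8.13, above Hif1a at 2.57 and Bnip3 at 6.73. Vegfa was the lowest of the 7 in each of the 4 replicates (0.192, 2.61, 0.341 and 0.159 CPM per kilobase in RepI, RepL, RepM and RepN), and Ndrg1 was the second lowest in each (1.8, 2.72, 2.22 and 3.3). The order within the upper tier differed between replicates: Bnip3 led in RepI (12.8), P4ha1 in RepL (126) and RepM (51.8), and Hif1a in RepN (17.5). Slc2a1 stood at 11.7, 43.3, 15.8 and 9.89 CPM per kilobase, above Hif1a in RepI and RepL and below it in RepM and RepN.

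**Figure D1:**
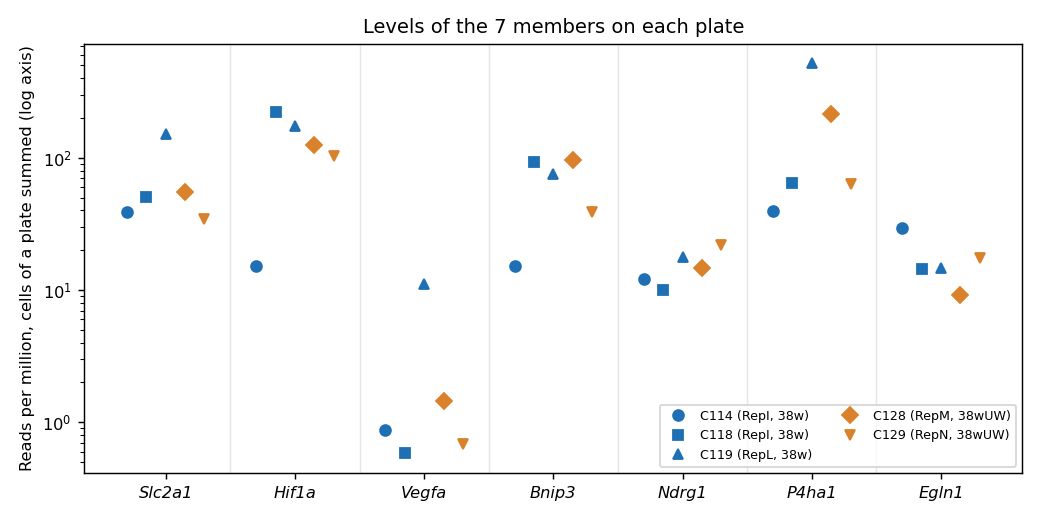
Level of each member on each of the 5 plates, as CPM of the plate's summed reads on a log axis, with 38w plates in blue and 38wUW plates in orange. Hif1a was at 15.1 on C114 and at 103 to 224 on the other plates, and Vegfa was above 1.5 only on C119 (11.2).

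Slc2a1 (chr4:119108711-119137983, plus strand, GRCm38) was found in 139 of 310 cells, and RepL stood apart from the other 3 replicates. Its summed level was 40.9 CPM in RepI and 152 in RepL of 38w, and 55.4 in RepM and 34.7 in RepN of 38wUW. RepL was the high replicate, while RepI lay between both replicates of 38wUW, so that the groups overlapped. In edgeR's quasi-likelihood test, with the 2 replicates of each group, the log2 fold change was 1.33 ± 0.91 (SE), with an adjusted p of 0.705. Without RepL it was 0.20. Few cells held most of the reads of RepL, since on C119 the median cell had 0 reads of Slc2a1, the highest had 272, and the top 3 cells held 57.5% of the plate's reads. It took 6 cells of RepI, 3 of RepL, 5 of RepM and 4 of RepN to hold 50% of the reads.

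The share of cells with a read varied less than the level. After each cell was thinned at random to 20000 reads, which left 277 of 310 cells, Slc2a1 had a read in 32.4% of RepI cells (95% Wilson interval 22.4% to 44.2%), 37.1% of RepL (26.8% to 48.9%), 34.4% of RepM (23.9% to 46.6%) and 22.7% of RepN (14.7% to 33.3%). RepN was the low replicate, and all 4 intervals overlapped. The mean was 34.7% ± 3.39 (SD, n = 2) in 38w and 28.5% ± 8.28 in 38wUW, with p = 0.667 in a two-sided exact permutation test over the replicates. With 4 replicates this test cannot go below p = 0.333. The thinning left out 7 cells of 38w and 26 of 38wUW. Without thinning, a read was found in 48.6%, 41.3%, 52.4% and 37.3% of cells, so that RepM and not RepL was then the highest.

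Hif1a (chr12:73901375-73947530, plus strand), the oxygen-regulated subunit, was the most widely found member after P4ha1, with a read in 175 of 310 cells. Its level was 52 and 174 CPM in RepI and RepL, and 125 and 103 CPM in RepM and RepN. The 38w replicates lay on either side of both 38wUW replicates, and the log2 fold change was 0.22 ± 0.87 (SE), with an adjusted p of 0.956 in edgeR. The low value of RepI belonged to 1 of its 2 plates. On C114 Hif1a stood at 15.1 CPM and on C118, cells of the same replicate under another batch tag, at 224 CPM, while the other 3 plates held 103 to 174. By cells, 21.6% of thinned C114 cells had a read of Hif1a (12.5% to 34.6%) against 88.2% on C118 (65.7% to 96.7%), 57.1% on C119, 50% on C128 and 33.3% on C129. The 2 plates of RepI therefore differed more from each other than the groups did, and leaving out C114 moved the log2 fold change to 1.06 (adjusted p = 0.995 in edgeR), leaving out C118 to -0.03. With equal weight for each cell, the mean of the cells' CPM was 58.8 and 104 in RepI and RepL, and both lay below the lower 38wUW replicate, RepN at 108 (exact permutation p = 0.333, the smallest possible). C114 is the plate with the high ribosomal share, and the part of this in the Hif1a level was not tested.

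**Figure D2:**
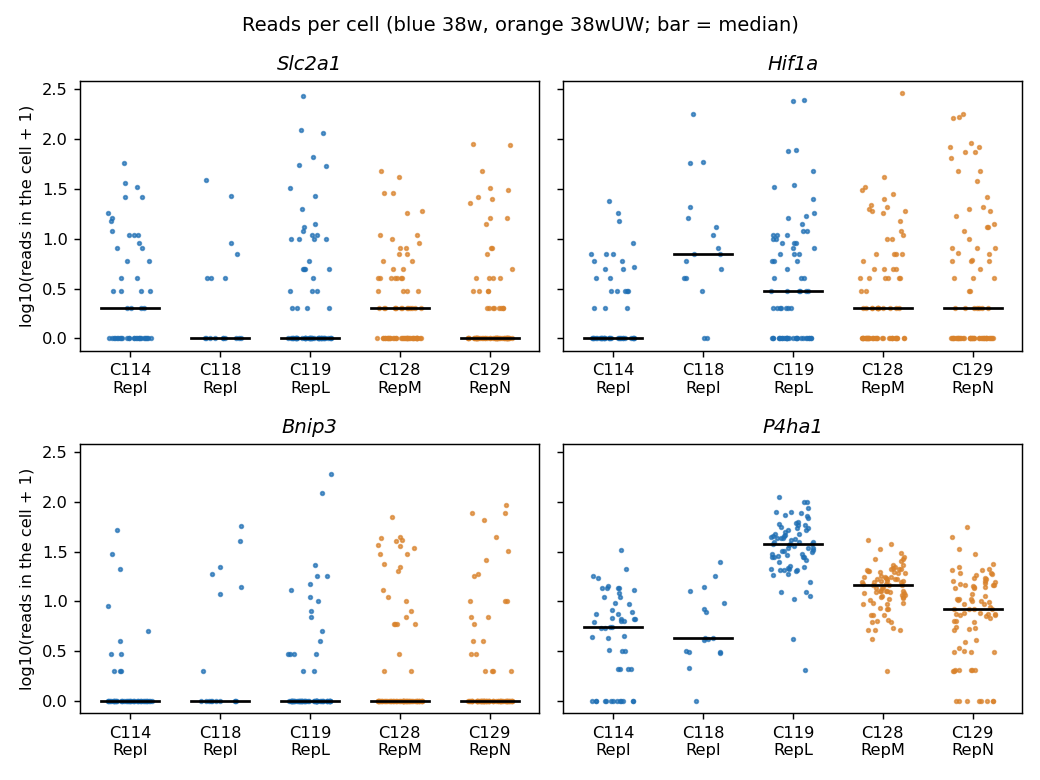
Reads of 4 members in each cell, by plate, as log10 of the reads plus 1, with the median of each plate as a bar (38w in blue, 38wUW in orange). Slc2a1, Hif1a and Bnip3 were at 0 in many cells of each plate (except Hif1a on C118, with a read in 15 of 17 cells) and reached up to 287 reads in a few, whereas P4ha1 was found in each cell of C119 and C128 at an even level.

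Bnip3 (chr7:138890836-138909519, minus strand), the mitochondrial target, was found in 85 of 310 cells. Its level was 28.9 and 75.7 CPM in the 38w replicates RepI and RepL, and 96.3 and 38.7 CPM in RepM and RepN. Each group had 1 low and 1 high replicate, and the log2 fold change was -0.13 ± 0.90 (SE; adjusted p = 0.972 in edgeR). Within RepI the plates again differed in the direction seen for Hif1a, with 15.2 CPM on C114 and 92.5 on C118. The thinned shares of cells were 17.6%, 22.9%, 31.2% and 18.7% in RepI, RepL, RepM and RepN (exact permutation p = 0.667). Without thinning, 25.7% and 25.3% of 38w cells had a read and 30.5% and 27.7% of 38wUW cells, and the mean of the cells' CPM was 48.5 and 60.6 against 120 and 68.8. Both 38w replicates lay below in these 2 measures (exact permutation p = 0.333 each).

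Egln1 (chr8:124908587-124949324, minus strand), the oxygen sensor, was the member that stood highest on the plate where Hif1a stood lowest. It was at 29.2 CPM on C114 and at 14.5, 14.8, 9.14 and 17.5 on C118, C119, C128 and C129. The thinned share of cells was 29.4% on C114 (18.7% to 43%) and 8% to 17.6% on the other plates. Summed by replicate, RepI reached 26.6 CPM, RepL 14.8, RepM 9.14 and RepN 17.5. RepI was highest and RepL lay between both 38wUW replicates, with a log2 fold change of 0.89 ± 0.97 (SE; adjusted p = 0.814 in edgeR). In RepL and RepN 1 cell held most of the reads, 56 reads or 65.1% of the total in RepL and 147 reads or 64.8% in RepN.

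Ndrg1 (chr15:66929318-66969640, minus strand) varied least between replicates. Its level was 11.9, 17.9, 14.6 and 21.8 CPM in RepI, RepL, RepM and RepN, and the thinned share of cells with a read was 16.2%, 18.6%, 18.8% and 17.3%. The groups overlapped in both measures, and the log2 fold change was -0.05 ± 0.96 (SE; adjusted p = 0.992 in edgeR). Without thinning, 27.1% and 21.3% of 38w cells had a read against 28% and 36.1% of 38wUW cells, and the mean of the cells' CPM was 14.9 and 17.5 against 17.5 and 18.7, with RepL below RepM by less than the rounding (exact permutation p = 0.333 each). The standard error allows for changes of either sign that this number of replicates cannot show.

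Vegfa (chr17:46016993-46032369, minus strand), the angiogenic target, was close to the limit of detection. It had a read in 20 of 310 cells and 8, 65, 8 and 8.8 reads in the 4 replicates, of which 39 came from 1 cell of C119 with 239 reads of Hif1a. That cell was the deepest of its plate, with 551629 reads of all genes. After thinning it kept 1 read of Vegfa and 5 of Hif1a. RepI and RepL stood at 0.823 and 11.2 CPM, and RepM and RepN at 1.46 and 0.68. RepL was the high replicate and RepI lay between both replicates of 38wUW. The log2 fold change was the largest of the members at 2.71 ± 1.46 (SE), with an adjusted p of 0.652 in edgeR, and it was -0.02 without RepL. After thinning a read was left in 1, 4, 3 and 3 cells of RepI, RepL, RepM and RepN, which is too few to compare.

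**Figure D3:**
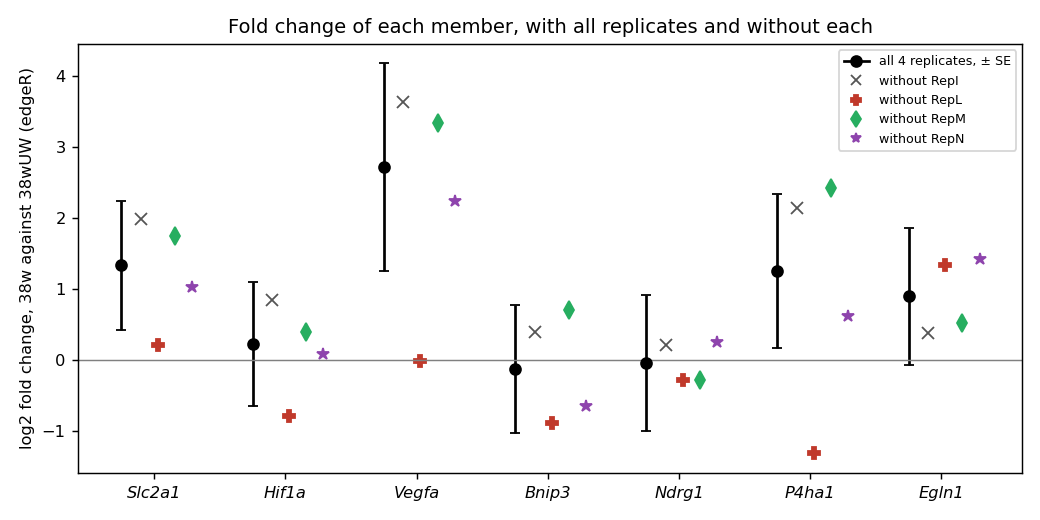
Log2 fold change of each member, 38w against 38wUW, from edgeR with all 4 replicates (black, bars are ± SE) and with each replicate left out in turn. Without RepL the fold change of Slc2a1 was 0.20, that of Vegfa -0.02 and that of P4ha1 -1.32.

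P4ha1 (chr10:59323296-59373304, plus strand) is given apart, because its counts were unlike those of the other members, which was seen after its values were known. Salmon shares out a read among the transcripts that it fits equally. Shares within a gene add back to a whole count, so a gene's count that is not whole points to sharing with transcripts of other genes. Of the cells with a read of P4ha1, 99.7% had a count that was not whole (by over 1e-06), against 0% to 5.14% for the other members and a median of 2.82% over the 3967 genes found in at least 100 cells. P4ha1 had a read in each of the 75 cells of C119 and each of the 82 of C128. Its level was also far more even than that of other genes. The variance of its reads over cells was 3.89 times the mean on C128 and 12.8 times on C119, where the median over genes with more than 5 reads per cell was 64.8 and 105. On C119, 162 genes had a read in every cell, and 94 of them had mostly counts that were not whole. They included 4 olfactory receptor genes (Olfr1062, Olfr1152, Olfr344 and Olfr554), which belong to the nose, and Pecam1, a marker of endothelial cells that had a read in 310 of 310 cells with 96.5% not whole. The source of these reads was not tested.

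In 38w, P4ha1 stood at 43.8 CPM in RepI and 517 in RepL, and in 38wUW at 213 in RepM and 63.1 in RepN. Each group held 1 high and 1 low replicate, and the log2 fold change was 1.25 ± 1.08 (SE; adjusted p = 0.764 in edgeR), or -1.32 without RepL. The genes whose levels over cells were most like P4ha1 were Cep97 (r = 0.742), Pecam1 (0.687), Eif2a (0.675), Slc30a9 (0.668) and Trpv2 (0.664), each with 96.1% to 99.7% of counts not whole, and they had the same order of replicates as P4ha1. For Cep97 it was 2058, 26763, 11908 and 3559 CPM. P4ha1 levels are therefore given as uncertain, and the gene is left out of the counts of members per cell.

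For the members as a whole, 0 of 7 passed the threshold of an adjusted p under 0.05, against 0% (0 of 11760) of all genes tested with edgeR. At an unadjusted p under 0.05 there were 0 of 7 members, against 8.07% (949 of 11760) of genes. The groups were free of overlap in CPM for 0 of 7 members, against 38.8% of genes, in the unthinned share of cells for 2 (Bnip3 and Ndrg1), against 37.8%, and in the mean of the cells' CPM for 3 (Hif1a, Bnip3 and Ndrg1), against 41.6%. DESeq2 called 0.576% of genes (81 of 14067) and 0 of the members. Of the members 5 had a log2 fold change above 0 and 2 below, with a median of 0.89 beside 0.12 over all genes tested, and without RepL the members' median was -0.28 beside -0.22 over all genes. The share of thinned cells with a read overlapped between groups for all 7, with exact permutation p of 0.667 to 1. Without RepI the log2 fold change of Slc2a1 was 1.98 and that of P4ha1 2.13, with adjusted p of 0.196 and 0.085 in edgeR.

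The wider pathway was described by 5 further lists, and 0 genes of any list passed the threshold in edgeR. Of the HIF subunits and regulators, 10 of 12 listed genes were tested and 2 had an unadjusted p under 0.05, in opposite directions, beside 8.07% of all genes. Sirt1, a deacetylase that acts on the factors, was at 4.32 and 7.24 CPM in 38w and 66.3 and 29.1 in 38wUW (log2 fold change -2.81 ± 0.98 (SE), p = 0.0117, adjusted p = 0.617 in edgeR). Egln2, a second prolyl hydroxylase, was at 55.5 and 7.76 CPM in 38w and 3.47 and 6.49 in 38wUW (2.92 ± 1.13 (SE), p = 0.0203, adjusted p = 0.617 in edgeR), and its log2 fold change was 0.44 without C114. Ep300, a co-activator of the factors, Vhl, which carries the hydroxylated alpha subunit to destruction, and Cited2, which competes for the co-activator, had unadjusted p of 0.263, 0.481 and 0.535 in edgeR. The list's median was -0.25 beside 0.12 over all genes, and 0.12 without C114. Without RepL, which leaves RepI alone in 38w, the log2 fold changes in edgeR were 3.80 for Egln2 and -3.12 for Sirt1. Egln3 was the most widely found prolyl hydroxylase gene of the list, with a read in 117 cells, against 66 for Egln1 and 62 for Egln2.

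Of 25 tested genes among the other hypoxia targets, 3 had an unadjusted p under 0.05, as 8.07% of all genes did, each with a log2 fold change above 0. Ndufa4l2, a mitochondrial protein that lowers respiration in hypoxia, was at 93.2 and 20.7 CPM in 38w and 10.2 and 1.08 in 38wUW (log2 fold change 3.60 ± 1.19 (SE), p = 0.00835, adjusted p = 0.617 in edgeR). Fam162a was at 423 and 239 CPM in 38w and 115 and 38.6 in 38wUW (2.35 ± 0.94 (SE)), and Igfbp3, a binding protein of insulin-like growth factors, at 33 and 122 against 8.95 and 24.6 (2.45 ± 0.99 (SE)). The groups did not overlap for 8 of the 25 genes, 5 higher and 3 lower in 38w, beside 38.8% of all genes. Without C114 the log2 fold changes were 1.46 for Ndufa4l2, 2.27 for Fam162a and 2.13 for Igfbp3. Pfkfb3 and Higd1a, next in order, had unadjusted p of 0.0914 and 0.104 in edgeR. The list's median was 0.30, and 0.72 without C114. Without RepI, which leaves RepL alone in 38w, the log2 fold change of Igfbp3 was 3.09 in edgeR. Without RepL, which leaves RepI alone in 38w, the log2 fold changes in edgeR were 4.41 for Ndufa4l2, 2.79 for Fam162a and -2.57 for Ero1a. They were -9.39 for Cxcr4 and -9.26 for Ppp1r3c, which the main fit did not test. The list's median was then -0.27, beside -0.22 over all genes. Cxcr4 had a read in 6 cells, at 0 CPM in both 38w replicates and 19 and 0.309 in 38wUW. Ppp1r3c had a read in 8 cells, at 0 CPM in both 38w replicates and 1.1 and 16.4 in 38wUW. With all replicates DESeq2 called Ppp1r3c as lower in 38w, a call that rests on these 8 cells.

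The 5 named glycolytic targets were highest in RepI, where Slc2a1 was highest in RepL. Tpi1 was at 368 and 63.8 CPM in RepI and RepL and at 72 and 25.8 in RepM and RepN. Gapdh was at 1636, 255, 263 and 105 and Eno1 at 430, 59.6, 91.4 and 28.9 in the same order, with 49.8% and 49% of their counts not whole, so that their levels are uncertain. Pkm, which makes pyruvate, was at 290, 116, 95.2 and 33.5 CPM, and Gpi1 at 147, 49.3, 61 and 24.9. Of 13 tested genes, 3 had an unadjusted p under 0.05 (Tpi1, Gapdh and Eno1, with log2 fold changes of 2.40, 2.62 and 2.28 and adjusted p of 0.617 in edgeR), beside 8.07% of all genes. The list's median was 1.30, and without C114 it was 0.19, beside 0.03 over all genes. Without RepL, which leaves RepI alone in 38w, the list's median was 1.70, beside -0.22 over all genes.

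In the family of glucose transporters Slc2a1 was by far the most widely found. It had a read in 139 cells, followed by Slc2a12 in 44, Slc2a5, a fructose transporter, in 28, Slc2a8 in 18, Slc2a3, the transporter GLUT3 of neurons, in 17 (58.8% of its counts not whole), and Slc2a4, the insulin-regulated GLUT4, in 11. In edgeR, 0 of 6 tested members had an unadjusted p under 0.05, and Slc2a5 came nearest, at 8.33 and 8.79 CPM in 38w and 2.38 and 1 in 38wUW (p = 0.0521, adjusted p = 0.622). Among the genes of the VEGF system, Vegfb was found in 30 cells and Vegfd in 45, more than the 20 of Vegfa. Vegfb was at 18.5 and 8.79 CPM in 38w and 1.46 and 1.54 in 38wUW (log2 fold change 3.42 ± 1.20 (SE), p = 0.0118, adjusted p = 0.617 in edgeR), and the receptor gene Nrp2 at 4.63 and 3.96 against 10.8 and 60.9 (-2.80 ± 1.10 (SE), p = 0.0216, adjusted p = 0.617 in edgeR). The medians of the log2 fold changes were 1.19 over 6 transporters and 1.74 over 5 genes of the VEGF system. Without RepL, which leaves 1 replicate in 38w, the medians were 0.29 and 1.11, over 6 genes each, beside -0.22 over all genes. Without C114 they were 1.14 and 0.89, over the 4 and 3 genes that could still be tested. Flt1, the receptor VEGFR1, was at 17.2 CPM in RepM and at 0.345 to 1.34 in the other replicates.

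Whether the members were found in the same cells was asked within plates, by the number of thinned cells with a read of both genes over the number expected from the share of each gene on each plate. Slc2a1 and Hif1a were found together in 53 cells where 40.3 were expected, a ratio of 1.32. By replicate the ratio was 1.37 in RepI (12 cells), 1.28 in RepL (19), 1.27 in RepM (14) and 1.41 in RepN (8). All 4 lay above 1. Put as shares, 60.9% of cells with Slc2a1 had Hif1a, and 36.8% of cells without Slc2a1. The median number of genes found, at equal reads, was 2449 in cells with Slc2a1 and 2396 in cells without, pooled over plates. By replicate it was 2356 and 2265 in RepI, 2310 and 2211 in RepL, and 2780 and 2772 in RepM. In RepN the direction turned, with 2454 and 2481. Over the 7083 genes found in at least 10% of thinned cells, the median ratio with Slc2a1 was 1.01 and 94.9% of genes lay below that of Hif1a, and the median ratio with Hif1a was 1.03 and 98.2% of genes lay below that of Slc2a1. The size of the ratio depended on the thinning. It was 1.11 with 10000 reads per cell, 1.18 with 40000 and 1.14 without thinning. Cells of a plate share their preparation, so these ratios are descriptions with no test.

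Of the 21 pairs of members, 2 had a ratio above 1 in all 4 replicates, Slc2a1 with Hif1a, and Vegfa with P4ha1, which rests on 10 cells and on the uncertain P4ha1. Slc2a1 and Bnip3 were found together in 24 cells against 20 expected (ratio 1.2; 1.49, 1.18, 1.31 and 0.63 by replicate). Hif1a and Bnip3 shared 35 cells against 31.1 (1.13; 1.24, 1.2, 1 and 1.07). Bnip3 and Egln1 shared 12 against 8.32 (1.44), and Bnip3 and Ndrg1 15 against 11.2 (1.34), both with replicates on either side of 1. Hif1a with Ndrg1 stood at 22 against 22.1 cells (0.994) and Hif1a with Egln1 at 17 against 16.3 (1.04). The pairs of Vegfa rest on 11 cells: 6 of them had Slc2a1, against 3.51 expected.

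**Figure D4:**
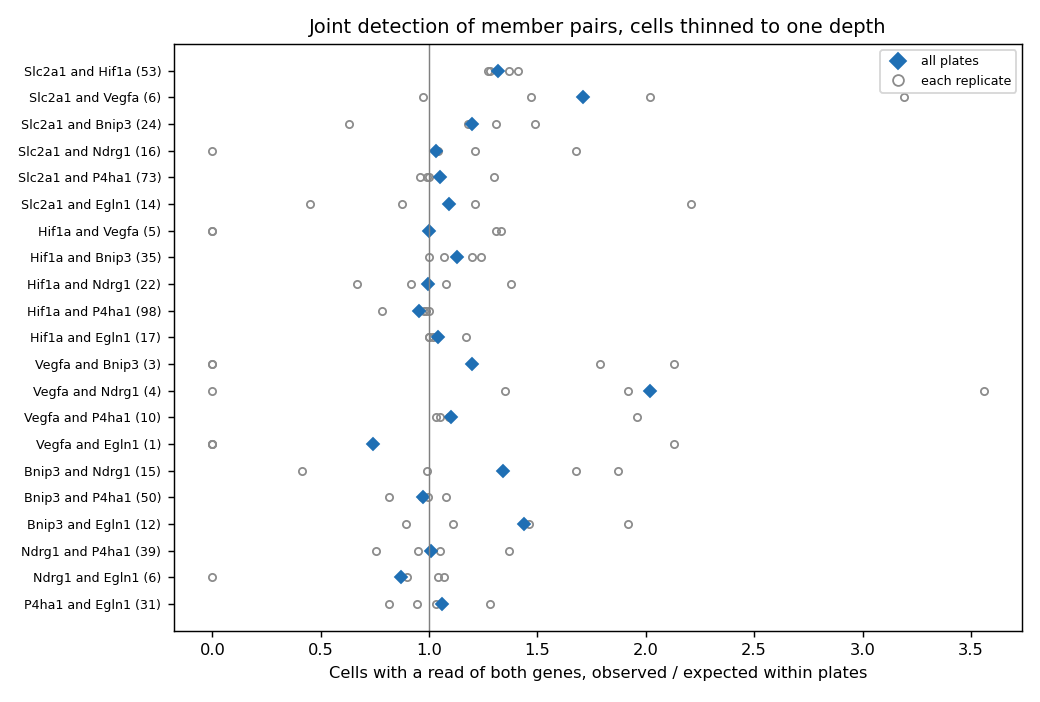
Cells with a read of both genes over the number expected within plates, for the 21 pairs of members in 277 thinned cells, over all plates (blue diamonds) and in each replicate (open circles), with the observed number of cells in brackets. The 4 replicates of Slc2a1 with Hif1a lay between 1.27 and 1.41, while most other pairs had replicates on both sides of 1.

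Counted over the 6 members without P4ha1, 75 of 277 thinned cells (27.1%) had a read of 0 members, 84 of 1, 76 of 2, 33 of 3, 8 of 4 and 1 of 5. No cell had all 6, which allows a share of up to 1.08%. The share of cells with at least 2 members was 44.1% and 47.1% for RepI and RepL and 50% and 30.7% for RepM and RepN. At least 3 were found in 19.1%, 20%, 17.2% and 5.33%, with RepN the lowest in both. Single cells, given in reads that are not scaled to depth, show how the members part. Their reads of all genes were 462385 for well G11 and 410745 for well A12 of C119. On C129 they were 393105 for well G12 and 136049 for well G7, where the median of all cells was 61294. The cell with the most Slc2a1 (272 reads, well G11 of C119) also had 247 reads of Hif1a, 56 of Egln1 and 23 of Ndrg1 but 0 of Bnip3 and Vegfa. Well A12 of C119 had 113 reads of Slc2a1, 47 of Hif1a and 187 of Bnip3, the most Bnip3 of any cell. In contrast, the cell with the most Egln1 (147 reads, well G12 of C129) had 1 read of Slc2a1 and 47 of Hif1a, and well G7 of C129 had 91 reads of Bnip3, 0 of Slc2a1 and 1 of Hif1a.

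Each thinned cell was also put to the keratinocyte marker list with its highest score, which gives ranges of a score and not cell types. Slc2a1 had a read in 35 of 73 cells (47.9%; 36.9% to 59.2%) with the basal list (such as Krt14, Krt5 and Itga6) on top, where 24.1 cells were expected from the plates they lay on, a ratio of 1.45. By replicate the ratio was 1.5, 1.35, 1.06 and 2.45 in RepI, RepL, RepM and RepN. In the interfollicular differentiated list (such as Krt1 and Krt10) it was found in 9 of 54 cells (16.7%; 9.02% to 28.7%) against 17.9 expected. The other lists lay between, at 24.6% of 61 infundibular and duct cells, 28.6% of 21 sebaceous, 31.6% of 38 bulge and 33.3% of 30 junctional zone cells. The interfollicular ratio was 0.34, 0.808, 0.364 and 0 in the 4 replicates, below 1 in each. The infundibular and duct ratio was 0.971, 0.897, 1.11 and 0, so that its low share came with 0 of 18 cells in RepN, and in RepM its share of 38.1% lay beside 36.4% for the basal list. The basal and interfollicular intervals did not overlap, for cells pooled over plates.

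Hif1a was spread more evenly over the lists, from 36.1% of infundibular and duct cells to 53.4% of basal cells, and the intervals of all 6 lists overlapped. Bnip3 ran from 9.84% of infundibular and duct cells (4.59% to 19.8%) to 34.2% of bulge cells (21.2% to 50.1%). These 2 intervals, of the lowest and highest of the 6 lists, did not overlap for cells pooled over plates. In RepI, RepL, RepM and RepN the ratio to the expected number was 0, 0, 0.61 and 0.595 for the infundibular and duct list. For the bulge list it was 1.5, 1.46, 0.873 and 1.89, on either side of 1. Egln1 was in 1 of 38 bulge cells (4.42 expected) and 1 of 21 sebaceous cells (2.34 expected). It was in 15 of 73 basal cells (20.5%, 12.3 expected) and 6 of 30 junctional zone cells (20%, 3.54 expected). The interfollicular list had 18.5% and the infundibular and duct list 11.5%. By replicate the ratio ran from 0 to 1.94 for the basal list, 0 to 4.17 for the junctional zone and 0 to 0.582 for the bulge. Ndrg1 had its highest share in the interfollicular differentiated list (24.1% of 54 cells) and in the infundibular and duct list (23%), and its lowest in the junctional zone (10%) and basal lists (11%), with intervals that overlapped. Vegfa was in 0 to 4 cells of a list. The lists were unevenly spread over the plates, with 23 of 73 basal cells on C114 and 15 of 30 junctional zone cells on C129, and between 3 and 7 cells of each list scored within 0.1 of a second list.

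**Figure D5:**
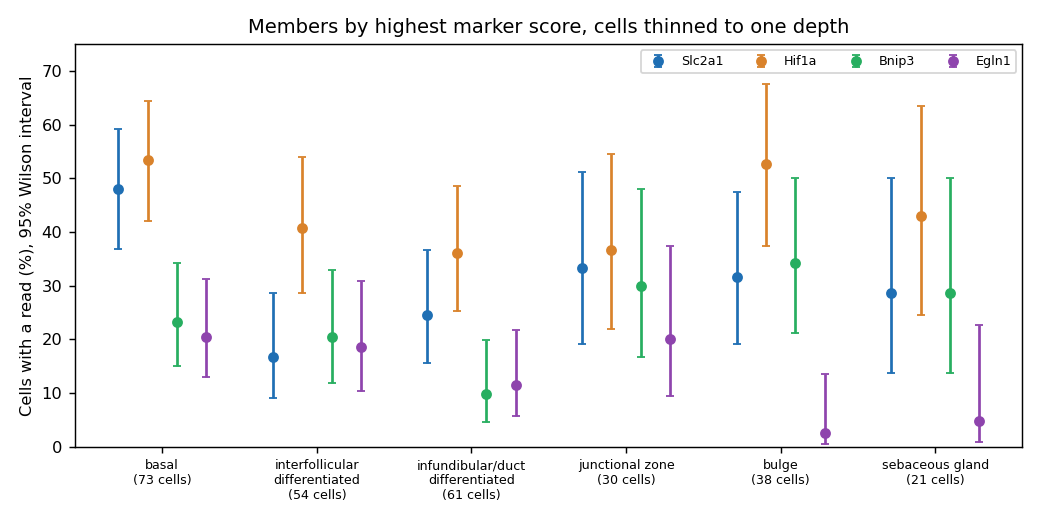
Share of thinned cells with a read of Slc2a1, Hif1a, Bnip3 or Egln1, by the keratinocyte marker list on which the cell scored highest, with 95% Wilson intervals that cover counting error only. Slc2a1 ran from 16.7% in the interfollicular differentiated list to 47.9% in the basal list, and Hif1a from 36.1% to 53.4%.

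Likeness of levels over cells was weak for both leading members. Among 3295 genes found in at least 25% of thinned cells, and with each plate's mean taken off, the genes most like Slc2a1 were Nptn (Pearson's r = 0.244), Gnaq (0.238), Prxl2a (0.224), Cav1 (0.224) and Smc6 (0.210), over 277 cells. Nptn is a cell adhesion molecule, Gnaq a G protein subunit and Cav1 the coat protein of caveolae. Those most like Hif1a were App (0.262), Map4 (0.245), Ttc14 (0.239), Nab1 (0.213) and Vezf1 (0.213), where 60.6% of the Map4 counts were not whole. Slc2a1 and Hif1a stood at r = 0.200, above 99.7% of genes for each, with 0.222, 0.250, 0.203 and 0.132 within RepI, RepL, RepM and RepN. Without thinning their r was 0.153, above 96.8% of genes for Slc2a1 and 97.1% for Hif1a. With the uncertain P4ha1, the r was 0.042 for Slc2a1 and -0.118 for Hif1a. The r of Slc2a1 was 0.122 with Vegfa, 0.084 with Bnip3, 0.017 with Ndrg1 and 0.006 with Egln1, and that of Hif1a was 0.074 with Bnip3 and 0.005 to 0.008 with Vegfa, Ndrg1 and Egln1. The cells of a plate share depth and library, and in counts this sparse an r of this size is a description only.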

How the data were processed

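Single Lrig1-lineage epidermal cells of the tail were profiled with a modified Smart-seq2 protocol, which has no molecular identifiers, so that intervals cover counting error only. The authors quantified reads with Salmon 0.13.1 against Ensembl 101 (GRCm38). The authors deposited unscaled estimated counts for each gene in each cell, and 3.6% of the values were not whole. Members and gene lists were chosen with earlier results of these data known. Cells were never taken as replicates: counts were summed per replicate (n = 2 against 2), rounded and tested (edgeR 4.0.16, R 4.3.3, with TMM, filterByExpr, quasi-likelihood F-test, Benjamini-Hochberg, threshold 0.05), with DESeq2 1.42.0 as an alternative. The SE of an edgeR log2 fold change was derived from the test, as the size of the change over the square root of its F statistic. The labels do not say that replicates were separate animals, so p-values measure only the spread between these samples. CPM are the reads scaled to a sum of 1000000. Alternatives were DESeq2 and its size factors, no filter, equal weight per cell, plates as units with either batch tag, other thinning and leaving out replicates or plates. Shares, joint detection, marker scores and likeness used cells thinned to 20000 reads (seed 1), and log2(CPM + 1) where a level was needed. The scripts were tested on simulated data. Doublets were not called, since a well was meant to hold 1 cell. The 15 columns whose names carry a suffix (13 IDTILL, 11 of them from wells with a second column, and 2 MBULK) were kept as cells and left out as alternatives. Batch tags disagree for C128 and C129 and entered alternatives only. Named genes were all 7 members, in each list those past the threshold or else up to 5 with the smallest p, and the 5 genes most like Slc2a1 and Hif1a in turn. P4ha1's likeness was added after its values were seen. Positions are from GENCODE M21 (GRCm38). The upstream sequences are from RefSeq (GRCm38.p6).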

Additional observations from a re-analysis of the deposited data

How the results depend on the processing

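No member passed the threshold in any of the settings tried, and the log2 fold changes of Slc2a1 and Egln1 were above 0 in all of them. The number of genes called was 0 with edgeR, 81 with DESeq2, 1 with no filter on low counts, 1 with plates as units and the batch tag, 4 with the alternative batch tag, and 0 to 1215 over the leave-one-out fits (169 without RepI, the most without RepL). The 2 members near no change turned with small steps. The log2 fold change of Ndrg1 was 0.03 with DESeq2, 0.03 with DESeq2's size factors, 0.20 with equal weight per cell, 0.27 with thinned cells, 0.05 without C118 and -0.28 to 0.25 without a replicate. That of Bnip3 was 0.11 with plates as units, 0.57 without C114 and -0.89 to 0.70 without a replicate. That of Hif1a was -0.08 with equal weight, -0.55 and -0.56 with plates and either batch tag, -0.03 without C118 and -0.80 to 0.84 without a replicate. Without a replicate, Vegfa ran from -0.02 to 3.63, P4ha1 from -1.32 to 2.41, Cited2 from -2.89 to 0.22 and Flt1 from -4.38 to 1.40. Vegfa was too low to be tested with equal weight, thinned cells, plates as units or without C114. Without C114, Eno1 was at -0.33 and Gpi1 at -0.01.

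The difference between groups in the share of thinned cells with a read, in percentage points, turned for Hif1a with at least 5 reads (-4.47), without C118 (-2.31) and over replicates left out (-3.43 to 15.5). It turned for Vegfa with no thinning (0.749), with 10000 reads (2.88), with 40000 (1.45) and over replicates (-2.87 to 1.37), and no cell had 5 reads of Vegfa after thinning. It turned for Bnip3 without C114 (7.06) and over replicates (-11 to 1.59), for Ndrg1 with 10000 reads (0.636), without C114 (0.0676) and over replicates (-1.87 to 0.53), for P4ha1 with 40000 reads (3.6), with at least 5 reads (11.4), without C114 (11.4) and over replicates (-19.5 to 18.8), and for Egln1 over replicates (-3.24 to 14.7). The joint ratio of Slc2a1 and Hif1a was 1.14 without thinning, 1.11 with 10000 reads, 1.18 with 40000 and 1.28 to 1.34 in the other settings. Of the 5 genes most like Slc2a1, 2 remained without thinning and 3 with ranks, and of those most like Hif1a, 0 remained without thinning, 3 with ranks and 3 without C114. The causes were not tested. No paired analysis was possible because the 4 replicates carry 4 different letters, and the batch tag, which crosses the groups but disagrees between label fields for C128 and C129, was instead a term of the 2 plate fits above. Leaving out the 15 columns with a name suffix, or the 2 named MBULK, changed no call and no direction among the fold changes and shares. Groups of 2 replicates and few reads per cell limit all of these values.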
